A study of Caenorhabditis elegans with 4 samples.

Results

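The 248 binding regions described here were those of the tagged transcription factor GEI-11 that lay near the right-hand ends of chromosomes II, IV and X of Caenorhabditis elegans. They were taken from a single deposited list of 687 peaks. A peak belonged to them if its midpoint lay beyond 75% of the span of its chromosome, where the span runs from the first base to the end of the last peak in the list. Of the 436 peaks on these 3 chromosomes, 63 on II, 78 on IV and 107 on X met this rule. The peaks were chosen by their chromosome and measured position alone, so their number and density are given as a description and support no statement of enrichment.

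The list came from chromatin immunoprecipitation with sequencing (ChIP-seq) of L4 hermaphrodites, the last larval stage before adulthood, of strain OP179. All worms carried the unc-119(ed3) mutation on chromosome III and the transgene wgIs179, which holds an unc-119(+) rescue marker and a gei-11 gene with the tags TY1, EGFP and 3xFLAG. No mutation of gei-11 itself is listed, and per the labels the fusion follows the expression pattern of gei-11. The transgene was introduced by particle bombardment, and the strain was outcrossed 3 times. The groups were ChIP DNA, precipitated with a goat antibody to EGFP (2 samples), and input DNA from the same strain (2 samples), with no untagged or wild-type control among them. Whole animals were used, so the tissues behind a peak cannot be told apart. The authors combined all samples into 1 list, which has no values per replicate, no read numbers and no depth. No error between replicates could therefore be given for any value, and no test was run. The quartiles below describe the spread among peaks.

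GEI-11 is the older name of SNPC-4, a protein with Myb-type DNA-binding domains and a subunit of the small nuclear RNA activating protein complex, SNAPc. This complex binds the promoters of small nuclear RNA genes and helps to recruit the polymerase there. In C. elegans SNPC-4 is also known from the piRNA gene clusters of chromosome IV, whose short RNAs guide the Argonaute protein PRG-1 in the germ line. In a RefSeq gene table on assembly WBcel235, chromosome IV held 14714 of the 15363 annotated piRNA genes, II held 109 and X held 162. The same table listed 41 small nuclear RNA genes on IV, 16 on II and 3 on X, and 71, 57 and 276 tRNA genes on these chromosomes. The table was used for such totals only, because the peaks are on build WS180, and which genes, exons or introns the peaks fall in was not analysed here.

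The stretches that held the peaks were of similar length and differed in how full they were. The limit fell at 11.4 Mb on II, 13.0 Mb on IV and 13.1 Mb on X, which left stretches of 3.81, 4.32 and 4.37 Mb. Density was 16.5 peaks per Mb on II, 18.1 on IV and 24.5 on X. Over the rest of the same chromosomes it was 4.11, 5.86 and 4.96 peaks per Mb. The same part of III, V and I held 9.58, 6.13 and 3.45 peaks per Mb. The choice of II, IV and X was part of the rule, so this difference is no independent result. Peaks were short on all 3 chromosomes, so they covered only 0.648% of the stretch on II, 0.638% on IV and 0.849% on X.

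Of the 6 peaks next to the limit, 1 had a q of 1e-10 or less, and it was left out. On II the last peak left out, at 11376515 to 11377075, lay 67.3 kb before the limit and had a q of 1.56e-36, where q is the peak caller's p-value corrected for multiple testing. The first peak taken in on II, at 11619734 to 11620322, lay 176 kb past the limit with a q of 2.84e-05. On IV the peaks on either side, 182 and 240 bp wide, had q-values of 0.00336 and 0.000606. On X they were 371 and 687 bp wide with q-values of 0.00518 and 0.00307. All q-values here and below are the authors'.

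Each chromosome had its own profile within the right end. On II the density climbed toward the tip, on IV it formed a plateau, and on X it formed a dome that fell away before the last peak. In successive bands of 5% of the span, chromosome II held 8, 7, 11, 15 and 22 peaks. Chromosome IV held 9, 21, 17, 21 and 10, and chromosome X held 9, 21, 32, 33 and 12. The fullest band of II was thus the last one, at 28.8 peaks per Mb, whereas on X the last band held 13.7 peaks per Mb after 37.8 in the band before it.

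**Figure D1:**
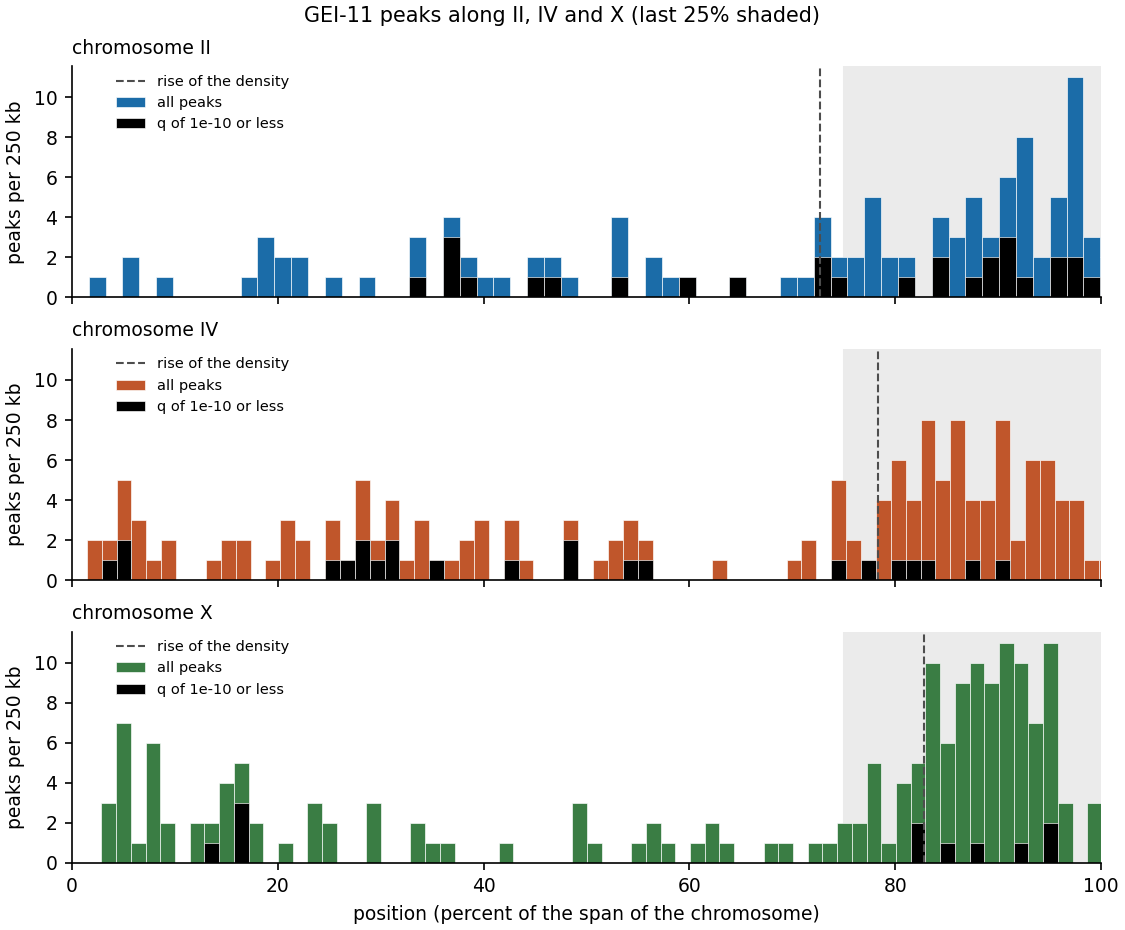
Number of GEI-11 peaks in windows of 250 kb (vertical axis) along II, IV and X, by position in percent of the span (the last window of each chromosome is cut short by the end of the span). Coloured bars count all peaks, black bars those at a q of 1e-10 or less, the shading marks the last 25% and the dashed line the position that best divides the chromosome into 2 stretches of constant density. The fullest windows hold 11 peaks on II and X and 8 on IV.

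The density rose at a different place on each chromosome. The position that best divided a whole chromosome into a sparse and a dense stretch, by the largest Poisson likelihood, was 14.48 Mb on X, which is 82.8% of its span. Left of it X held 5.46 peaks per Mb and right of it 31.0. On IV the position was 13.54 Mb (78.4% of the span), with 5.83 peaks per Mb before it and 20.1 after it. On II it was 11.10 Mb (72.7%), with 3.69 and 16.6 peaks per Mb, so there the dense stretch began before the limit. When the search was limited to the part beyond 50% of the span, the position on X did not move, that on IV came at 12.78 Mb and that on II at 12.94 Mb, with 22.0 peaks per Mb beyond it. The division assumes a single step, which the climbing profile of II does not show.

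At a resolution of 250 kb the dense stretch of X was continuous. From 14.5 to 16.75 Mb every window of X held between 6 and 11 peaks, and the next windows held 3 and none. On II the windows were uneven, with 11 peaks from 14.75 to 15 Mb and 8 from 14 to 14.25 Mb, but 2 from 14.25 to 14.5 Mb and none from 12.5 to 12.75 Mb. On IV no window of the right end was empty, and 7 of 18 held 5 peaks or more. Over the rest of these chromosomes 20 of 46 windows on II, 18 of 52 on IV and 22 of 53 on X were empty.

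The middle of the peak positions also differed. The quartiles of the right-end positions on X were 14.73 and 16.13 Mb, with a median of 15.54 Mb or 88.9% of the span. On IV the quartiles were 14.38 and 16.11 Mb with a median of 15.05 Mb (87.1%). On II they were 13.06 and 14.70 Mb with a median of 13.98 Mb (91.6%), the closest of the 3 to the tip.

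The right end of IV overlaps a domain of piRNA genes that the literature places at about 13.5 to 17 Mb. Those positions were not matched to build WS180, and where else on IV piRNA genes lie was not analysed here. Of the 78 peaks, 73 lay in that interval, 3 before it and 2 after it. The right end itself ran from 13.0 to 17.3 Mb, so the interval covered most of it. Peaks spread evenly would also lie mostly inside. All 27 of the clustered peaks of the right end of IV, as defined below, were among the 73. The 73 peaks had a median spacing of 35.5 kb and a median width of 306 bp. The right ends of II and X held 16.5 and 24.5 peaks per Mb, against 18.1 on IV. Annotated piRNA genes were few on II and X but were counted by whole chromosome only. Any link of peaks to piRNA genes was not tested.

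Most neighbouring peaks were well separated, and a minority lay close together. The distance between neighbouring midpoints had a median of 18.7 kb on X (quartiles 7.85 and 44.8 kb, 106 gaps), 27.9 kb on II (5.70 and 96.9 kb, 62 gaps) and 37.7 kb on IV (7.09 and 72.1 kb, 77 gaps). In the rest of these chromosomes the medians were 80.4, 130 and 116 kb. Of the 245 gaps between right-end peaks, 50 (20.4%) were of 5 kb or less and 41 were longer than 100 kb. The share of short gaps was much alike on the 3 chromosomes, with 22.6% on II, 20.8% on IV and 18.9% on X. In the rest it was 10.9% on II, 14.7% on IV and 1.56% on X, where 1 gap of 64 was that short. Density was lowest on II and highest on X. The order of the right ends changed with the distance, as gaps of 20 kb or less made up 46.8% on II, 36.4% on IV and 50.9% on X. In the first 25% of the span the share of gaps of 5 kb or less was 27.3% on II (11 gaps), 7.69% on IV and 0% on X. The right ends of I, III and V together had 14.7%. Density was fixed by the choice of the peaks, and its part in these shares was not tested.

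**Figure D2:**
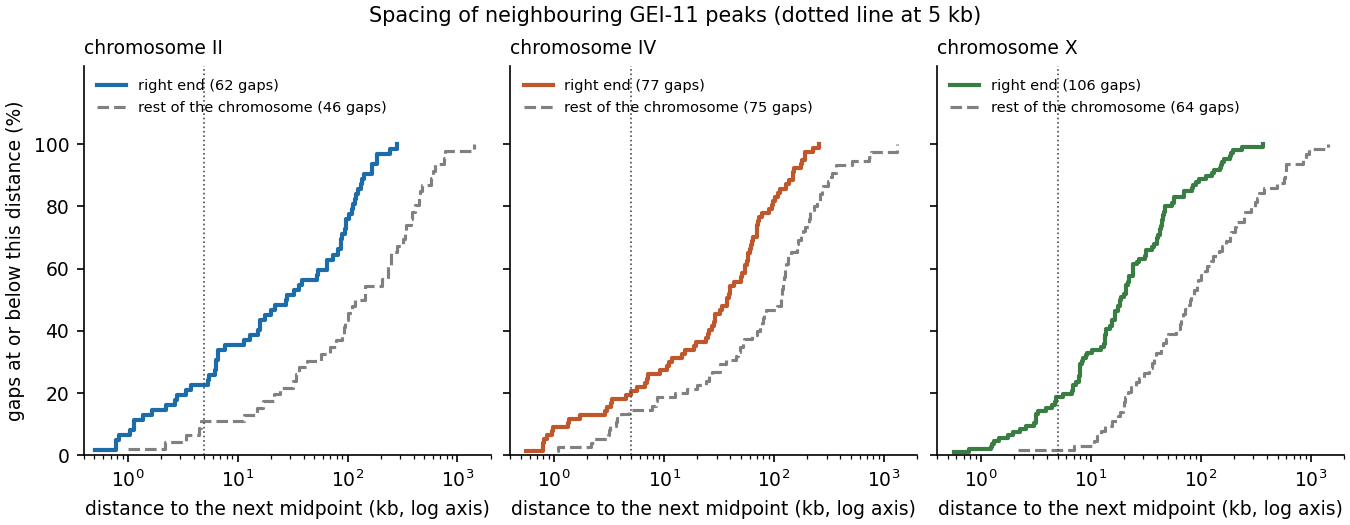
Cumulative share of gaps between neighbouring GEI-11 peak midpoints (vertical axis, percent) by their length in kb (log axis), for the right ends (solid) and the rest of each chromosome (dashed). The dotted line marks 5 kb, below which lie 22.6%, 20.8% and 18.9% of the right-end gaps of II, IV and X.

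The longest gaps lay at different places. On X the longest, 370 kb, ran from 16931833 to 17300729 and set off the 3 outermost peaks from the dome. On IV the longest, 254 kb, also came near the tip, from 16995723 to 17249716, with 2 peaks beyond it. On II the longest, 284 kb, was internal and ran from 12494812 to 12778322, and a second of 245 kb separated 14251851 from 14496686. The outermost peak of each chromosome, which defines its span, had a q of 0.00786 on II, 1.97e-05 on IV and 0.00699 on X.

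A minority of the right-end peaks stood in small clusters, which were pairs in most cases. A cluster was a run of at least 2 peaks in which each midpoint lay within 5 kb of the next. There were 38 clusters with 88 of the 248 peaks (35.5%), namely 27 pairs, 10 triplets and 1 group of 4. By the same definition 25.5% of the whole list and 16.5% of the other peaks of these chromosomes stood in clusters. The first 25% of the span of II, IV and X had 41.7% (5 of 12 peaks), 14.8% and 0%. The middle 50% had 11.4%, 32.7% and 7.41%. The right ends of III, V and I had 33.3%, 21.9% and 0%. Shares like those of the 3 right ends thus also occurred elsewhere. Chromosome X had 16 clusters with 36 peaks, II had 11 with 25 and IV had 11 with 27. Clusters were most compact on II, where their median length was 1838 bp and 6 of 11 were within 2 kb. On IV the median length was 2475 bp, and on X it was 3558.5 bp with 1 of 16 within 2 kb. In 18 of the 38 clusters some neighbours were less than 1 kb apart, edge to edge, and whether those are separate binding regions was not tested.

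Counting each cluster once, at its peak of lowest q, left 198 sites. There were 49 on II, 62 on IV and 87 on X. Their density was 12.8, 14.4 and 19.9 sites per Mb, so the order of the chromosomes was kept. The median distance between sites was 66.9 kb on II, 56.9 kb on IV and 24.5 kb on X. On II the median thus went from 27.9 kb between peaks to 66.9 kb between sites, whereas on X it went from 18.7 to 24.5 kb.

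The only group of 4 held the strongest right-end peak of X. Its first peak, at X, 14476438 to 14477739, was 1302 bp wide with a q of 6.82e-151. A second of 402 bp followed at 14478132 to 14478533 (q = 1.11e-47), only 392 bp beyond the edge of the first. The third and the fourth, of 457 and 417 bp, had q-values of 1.22e-05 and 3.52e-09. The group was 5543 bp long, and its first midpoint is where the density of X rose. Strength therefore fell steeply from the first to the third peak.

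The other cluster of X named by rank, a triplet at 16564467 to 16566653, held 2 strong outer peaks and a weaker one between them. Its peaks of 347, 262 and 358 bp had q-values of 8.73e-12, 1.17e-06 and 4.45e-15. On II the first triplet, at 14800948 to 14804919, joined 2 strong peaks with a weak one between them. The outer peaks, of 609 and 1278 bp, had q-values of 3.25e-59 and 6.1e-237, and the 110 bp peak between them had a q of 0.00778. The second triplet of II, at 14941572 to 14945702, was made of 3 weak and narrow peaks of 180, 179 and 200 bp with q-values from 0.000542 to 0.00145.

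On IV no peak of either cluster named by rank reached a q of 1e-10. The first, at 13600656 to 13602270, held 3 peaks of 296, 272 and 233 bp within 1615 bp, with q-values of 1.02e-05, 4.08e-05 and 0.00592. The second, at 15688722 to 15697087, was the longest of all 38 clusters at 8366 bp, and its middle peak had the lowest q of the 3 (6.64e-07).

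**Figure D3:**
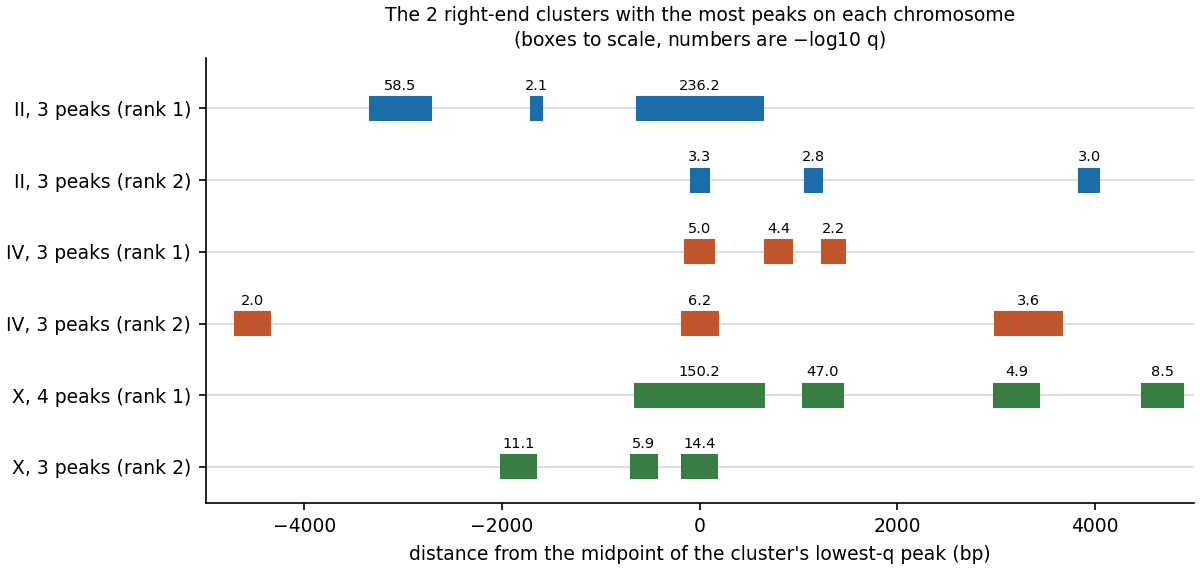
The 2 right-end clusters with the most peaks on each chromosome (ties go to the lower median q), drawn to scale by distance in bp from the midpoint of the cluster's lowest-q peak. Boxes are peaks and the numbers above them are −log10 q, which reach 236.2 on II and 150.2 on X but stay at 6.2 or lower on IV.

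Strong peaks made up different shares of the 3 right ends. At a q of 1e-10 or less there were 28 of the 248 peaks (11.3%), against 18.3% of the whole list and 18.1% of the other 188 peaks of these chromosomes. II held 15 of them (23.8% of its right-end peaks), X held 7 (6.54%) and IV held 6 (7.69%). In the rest of the same chromosomes the shares were 27.7% on II, 6.15% on X and 22.4% on IV. At a q of 1e-20 or less, where the whole list had 13.1%, the right ends had 11 peaks on II (17.5%, against 27.7% in the rest), 4 on IV (5.13% against 15.8%) and 2 on X (1.87% against 1.54%). At a q of 1e-5 or less, where the whole list had 32.3%, the shares were 34.9% against 46.8% on II, 26.9% against 35.5% on IV and 22.4% against 15.4% on X. The right-end share was thus below that of the rest at all 3 thresholds on II and IV. On X it was above, but by little at 1e-10 (7 of 107 peaks against 4 of 65) and 1e-20 (2 against 1). In the first 25% of the span of II, IV and X the shares were 0%, 11.1% and 10.5% at 1e-10. At 1e-5 they were 25%, 22.2% and 23.7%. Against that part alone the order was turned on II and X at both thresholds and on IV at 1e-5. None of this was tested.

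Chromosome II carried most of the right-end peaks of lowest q. A q of 1e-100 or less was found for 6 right-end peaks, 5 of them on II and 1 on X, against 3.93% of the whole list (27 peaks). The rest of II held 3 such peaks among 47, and its right end 5 among 63. The strongest right-end peak, at II, 13834238 to 13835401, was 1164 bp wide with a q of 1.71e-240 and ranked 2 in the whole list. The 1278 bp peak of the first triplet of II ranked 3. The others on II were a 912 bp peak at 15025429 to 15026340 (q = 6.48e-150), a 937 bp peak at 14017730 to 14018666 (q = 2.01e-138) and an 875 bp peak at 12944352 to 12945226 (q = 9.65e-132). These 5 peaks were spread from 12.94 to 15.03 Mb and did not form a group.

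On IV the strong peaks were spread from 13.43 to 15.60 Mb. The strongest, at IV, 14326828 to 14327427, was 600 bp wide with a q of 1.73e-86. It was followed by a 409 bp peak at 14013662 to 14014070 (q = 2.58e-46), a 450 bp peak at 13430132 to 13430581 (q = 4.06e-33) and a 406 bp peak at 13893099 to 13893504 (q = 6.72e-24). The last 2, of 332 and 309 bp, started at 15.23 and 15.60 Mb with q-values of 3.12e-14 and 1.86e-12. Beyond 15.60 Mb the right end of IV held no peak at a q of 1e-10 or less, although the 1 Mb from 16 to 17 Mb held 20 peaks.

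On X, 2 of the 7 strong peaks belonged to the group of 4 and 2 to the triplet described above. The third by q was a 520 bp peak at X, 15345301 to 15345820 (q = 1.41e-20), and the remaining ones, of 345 and 342 bp, had q-values of 1.79e-13 and 1.9e-13. The fullest 1 Mb, from 15 to 16 Mb with 39 peaks, held only 1 strong peak. The dome of X was thus made mostly of peaks at a higher q, as was the whole list, where 18.3% were strong. The median −log10 q was 3.40 both in the right end of X and in the whole list. It was 3.84 in the right end of II, 3.17 in that of IV and 2.72 in the rest of X.

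Strong peaks and clusters coincided to a different degree on each chromosome. On X 5 of 36 clustered peaks were strong (13.9%), against 2 of 71 lone ones (2.82%). On II the counts were 7 of 25 (28%) and 8 of 38 (21.1%), and on IV they were 1 of 27 (3.70%) and 5 of 51 (9.80%). Of the 38 clusters, 29 held no strong peak, 5 held 1 and 4 held 2. Only 11.3% of all right-end peaks were strong, so clusters without a strong peak do not mean that clustered peaks were weaker. Over the 3 right ends 13 of 88 clustered peaks (14.8%) and 15 of 160 lone ones (9.38%) were strong. The counts by chromosome are too small to rank the chromosomes.

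Right-end peaks were short, as were peaks elsewhere in the list. Their median width was 296.5 bp (quartiles 227 and 402.5 bp), against 333 bp (266.5 and 442 bp) for the other peaks of these chromosomes. Between 200 and 500 bp were 186 of the 248, against 140 of the other 188 and 500 of the whole list of 687. By chromosome the medians were 313 bp on II (quartiles 212.5 and 427 bp), 315.5 bp on IV (227 and 407 bp) and 288 bp on X (231.5 and 366.5 bp). In the rest they were 358, 302.5 and 341 bp. The order of right end and rest was thus turned on IV, and the quartiles overlapped throughout. The right ends of I, III and V had medians of 360, 408 and 259 bp, and the whole list had 331 bp. That of V was thus narrower than any of the 3 described here.

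Width went with strength on II and IV and less so on X. Across right-end peaks the Spearman correlation of width with −log10 q was 0.66 on II (63 peaks), 0.47 on IV (78 peaks) and 0.19 on X (107 peaks). In the rest of II, IV and X it was 0.61, 0.64 and -0.08, and in the whole list 0.43. The pattern was thus not particular to the right ends. All of these peaks share 1 combined list, and a peak caller's q can depend on width, so the coefficients are descriptions. On II the median width was 216.5 bp for the 24 peaks at a q over 1e-3 and 609 bp for the 15 at 1e-10 or less. On X the corresponding medians were 280 bp (43 peaks) and 358 bp (7 peaks), and on IV 242 bp (34 peaks) and 407.5 bp (6 peaks).

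**Figure D4:**
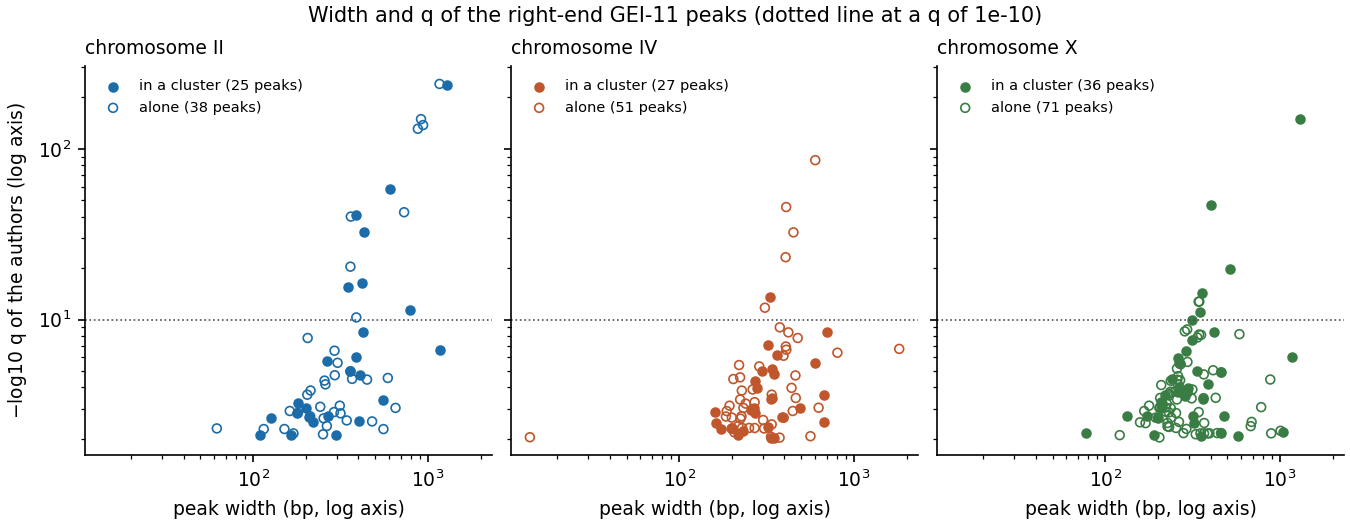
Width in bp (horizontal, log axis) and −log10 q (vertical, log axis) of each right-end GEI-11 peak on II, IV and X, with filled circles for peaks in clusters and open circles for lone ones. The dotted line marks a q of 1e-10. The 5 peaks of II at a q of 1e-100 or less are 875 to 1278 bp wide, and X has several peaks of 500 bp or more among those of highest q.

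Not every wide peak reached a q of 1e-10. Over 1000 bp were 8 of the 248 right-end peaks, against 20 of the 687 in the whole list. Of the 8, 4 lay on X, 3 on II and 1 on IV. The widest, at IV, 14032610 to 14034421, was 1812 bp with a q of 1.86e-07. The second widest of II, the same 1164 bp as its strongest peak, lay at 13290496 to 13291659 with a q of 2.47e-07. Neighbouring peaks at the edge of the dome of X, at 16929399 to 16930570 and 16930802 to 16931833, were 1172 and 1032 bp wide with q-values of 9.04e-07 and 0.00653. Of the right-end peaks at a q over 1e-3, 6 of 43 on X (14.0%) were at least 500 bp wide, against 2 of 34 on IV and 1 of 24 on II. The rest of X was similar, with 7 of 37 (18.9%).

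At the other extreme, 3 of the 248 right-end peaks were narrower than 100 bp, against 10 of the 687 in the whole list. The 3, 1 on each chromosome, were 14 bp wide at IV, 13855598 to 13855611, 62 bp at II, 13760608 to 13760669, and 78 bp at X, 16255531 to 16255608. Their q-values of 0.00901, 0.00497 and 0.007 compare with 0.00925 for the highest q in the list.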

How the data were processed

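Per the labels' protocols, worms were grown at 20 °C, crosslinked with 2% formaldehyde and sonicated; the stage label is L4, although the protocol text for the ChIP speaks of embryos. The authors deposited 1 combined list of 687 peaks with positions on WormBase WS180, per the file headers, and a q-value for each peak from PeakSeq, which its source column names without a version. Neither the aligner, the filters and the q threshold nor the pooling of replicates is given in these sources. The q-value depends on depth and width as well as enrichment and was used only within this list, also as −log10 q. Depth is unknown.

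Midpoints were (first + last base)/2, rounded down. The 3 chromosomes, the limit of 75% of the span, the cluster distance of 5 kb, the split at a q of 1e-10 and the windows were chosen with earlier results of these data known. The rise in density needed at least 5 peaks on each side. Peaks were named by rank: on each chromosome the 5 of lowest q, the 2 widest, the narrowest, the first and the last, those next to the limit, and the members of the 2 largest clusters; other peaks named were chosen after their values were seen. Analyses used Python 3.11.15, NumPy 2.4.6, pandas 2.3.3, SciPy 1.17.1 and Matplotlib 3.10.9, and the functions were tested on simulated lists. No test was run, because the list has no value per sample. No sequence is shown, because no genome of build WS180 was used here.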

Additional observations from a re-analysis of the deposited data

How the results depend on the processing

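No paired analysis was possible because the list combines the samples and has no values per replicate. For the same reason, leaving 1 replicate out was not possible. Among 75 alternatives, 50 kept the value within 1.5 times (counts and densities) or within the 95% order-statistic interval of a median. The other 25 came from settings that drop peaks or change a distance or threshold. In the 343 peaks of lowest q, II, IV and X kept 33, 35 and 53 right-end peaks. These were 51.6%, 47.3% and 73.6% of their peaks there, against 57.3%, 50.6% and 62.2% in the whole list. Spacing was then 77.7, 79.1 and 47.3 kb, density past the rise 9.04, 9.09 and 15.8 peaks per Mb, clustered peaks 8, 4 and 15, and median width 389 bp on II and 376 bp on IV. Clusters within 2 kb held 17 peaks on IV and 13 on X, within 10 kb 59 on X, and within 20 kb 42, 45 and 82. Merging peaks less than 1 kb apart left 11 clustered peaks on II and 14 on IV. At a q of 1e-5 or less there were 21 peaks on IV and 24 on X, where the whole list had 32.3%, and at 1e-20 or less 2 on X. Limits at 70% or 80% of the span, run for the number of peaks, spacing, width and peaks at a q of 1e-10 or less, kept each within these bounds. Keeping only peaks at a q over 1e-10, chosen after seeing the data, put the rise of II at 12.96 Mb. Binding weaker than a q of 0.00925 and the chromosome beyond the last peak cannot be assessed.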
